A study of Mus musculus with 24 samples.

Results

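The genes described here are the 150 well-counted microRNA (miRNA) genes of mouse embryonic stem cells. They were chosen by symbol (Mir followed by a digit, or Mirlet7) and by having at least 50 counts summed over both input libraries of an RNA immunoprecipitation. Of 1174 miRNA genes with such a symbol in tables of 53900 features, 150 reached the threshold, 250 had 1 to 49 counts and 774 had no count. Host genes and 6 genes left out by name, among them members of the miR-290 cluster, are not part of the set. The choice used the input counts, so every value of the immunoprecipitation over its input is a description of the chosen genes and carries no test.

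MicroRNAs are short RNAs cut from hairpin precursors by Drosha in the nucleus and Dicer in the cytoplasm. A mature strand sits in an Argonaute protein and pairs with messages mainly through its seed, the bases from the second to the eighth, and lowers the stability and translation of those messages. In mouse embryonic stem cells the miR-290 and miR-302 clusters are known for promoting the cell cycle, while let-7 is kept low by Lin28a and rises with differentiation. TET2 is a dioxygenase that oxidises 5-methylcytosine, in RNA as well as DNA, and 5-hydroxymethylcytosine (hm5C) is its first product.

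The study asked, by its title, about TET2, hydroxymethylated RNA and tRNA fragments. In the immunoprecipitation part, RNA of untreated stem cells of strain B6;129 was captured for hm5C (hm5C RIP, 2 libraries) and set against its input (RIP input, 2 libraries), with a small RNA library kit applied to TRIzol RNA. In the crosslinking part, TET2 CLIP (4 libraries) recovered RNA bound to a tagged TET2 and was set against CLIP input (4 libraries), in E14 cells of the genotype Tet2HA-His, as clones 65 and 75 with 2 libraries of each kind per clone, made by a custom eCLIP protocol. Those cells had received the photoactivatable nucleoside 4SU at 500 µM for 4 hours and 400 mJ/cm2 of UVB. All cultures grew with leukemia inhibitory factor, 3 µM of the GSK3 inhibitor CHIR99021 and 1 µM of the MEK inhibitor PD0325901. The series' design text calls the replicates biological, each clone is a single line, and no untagged or antibody control was analysed here.

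Totals were 1564014 and 2100187 counts in hm5C RIP, against 4641963 and 4889943 in RIP input, and 221060 to 453944 in TET2 CLIP, against 913002 to 4729463 in CLIP input. Every library held counts of at least 9 of 13 stem cell markers, whose summed level was 1955 to 3220 CPM (counts scaled to a common library total) in CLIP and 21.1 to 44.8 CPM in RIP, where the libraries favour small RNA. Fibroblast markers summed to 35.8 and 44.8 CPM in hm5C RIP, above the stem cell markers there (21.1 and 32.9 CPM), against 3.23 and 3.27 CPM in RIP input. In each hm5C RIP library 3 of these 7 genes had a count, and Lum, Postn and Thy1 were at 0 in both. Extraembryonic endoderm markers (6 genes, 5 with a count in each hm5C RIP library) summed to 9.59 and 8.57 CPM in hm5C RIP, against 1.72 and 2.45 CPM in RIP input, and trophoblast markers (5 genes, 2 with a count) to 3.197 and 1.90 CPM, against 0.43 and 1.02 CPM. In CLIP these 3 lists reached at most 31.3 CPM. The part of such cells in the results was not tested. One coding gene, Acsl6, took 55.2% and 60.6% of the hm5C RIP counts, against 0.255% and 0.167% of the RIP input counts. The sign of a change therefore depends on the scaling for many genes, and 3 scalings are described for the members as a set.

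Members with mature sequences in the RefSeq table (build GRCm38.p6) numbered 137, with 255 mature arms of 19 to 26 nucleotides. A gene's count pools both arms and any precursor reads, so the arm printed is the one for which a miRNA is usually named. Of the 150, 67 lay in 18 clusters with neighbours within 10 kb. In all sequences the capitals mark the seed. The first set shows the most counted cluster, that of Mir183, Mir96 and Mir182, at chr6:30165918-30169737 on the minus strand, a polycistron best known from sensory cells.
miR-182-5p: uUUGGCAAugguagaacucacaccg
miR-183-5p: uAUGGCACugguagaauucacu
miR-96-5p: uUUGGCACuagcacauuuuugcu

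The next set shows 4 genes that share the seed AUUGCAC and lie on 3 chromosomes. Mir92-2 and Mir363 belong to the miR-106a-363 cluster at chrX:52741693-52742567, a paralog of the miR-17-92 cluster that promotes proliferation, while Mir92b lies on chromosome 3 and Mir32 on chromosome 4.
miR-92a-3p: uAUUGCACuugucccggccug
miR-92b-3p: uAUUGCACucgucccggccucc
miR-363-3p: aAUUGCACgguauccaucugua
miR-32-5p: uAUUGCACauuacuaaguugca

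A further set shows miRNAs of the stem cell seed family, in which the core AAGUGC stands at either of 2 neighbouring positions. The 3p arm of Mir290a, with the seed AAGUGCC, holds this core too and is not printed. Mir302b and Mir302d lie in the miR-302 cluster at chr3:127545228-127545689, Mir106a and Mir20b in the miR-106a-363 cluster, and Mir106b on chromosome 5.
miR-302b-3p: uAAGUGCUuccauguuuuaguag
miR-302d-3p: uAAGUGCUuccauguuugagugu
miR-106a-5p: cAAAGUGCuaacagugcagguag
miR-20b-5p: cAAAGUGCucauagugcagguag
miR-106b-5p: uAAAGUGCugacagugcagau

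Another set holds the pair with the highest hm5C RIP over input among shared seeds. Mir10a lies at chr11:96317165-96317274 within the span of Hoxb3 and Mir10b at chr2:74726070-74726137 within those of Hoxd3 and Hoxd4, as this Hox-linked family does in vertebrates. Counted from 1 at the 5′ end of miR-10a-5p, the pair differs by the single substitution U12A.
miR-10a-5p: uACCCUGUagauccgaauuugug
miR-10b-5p: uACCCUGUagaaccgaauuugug

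The last set shows miRNAs of genes that were tested in CLIP.
let-7g-5p: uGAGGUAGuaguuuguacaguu
miR-16-5p: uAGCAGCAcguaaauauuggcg
miR-34a-5p: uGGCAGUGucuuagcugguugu
miR-290a-5p: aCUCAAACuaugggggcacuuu
miR-1983: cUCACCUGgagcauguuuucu

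Input counts of the members spanned 52 to 160233, with a median of 352. There were 43 genes with 1000 or more counts, 84 with at least 100 but fewer than 1000 and 23 with fewer than 100. Just inside the threshold lay Mir669c with 52 counts, Mir378c with 53 and Mir10a with 55, and just outside lay Mir1198 and Mir145a with 49 each and Mir494 with 48. The 12 most counted genes held 76.0% and 77.2% of all member counts in hm5C RIP, against 76.6% and 77.7% in RIP input. They were Mir182, Mir92-2, Mir183, Mir541, Mir298, Mir16-1, Mir26a-1, Mir411, Mir148a, Mir99b, Mir92b and Mir151.

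The members as a group made up 2.86% and 2.59% of all counts in hm5C RIP, against 4.76% and 5.56% in RIP input. With the counts of Acsl6 taken out of the totals, the shares became 6.38% and 6.57% in hm5C RIP, against 4.77% and 5.57% in RIP input. The hm5C RIP libraries thus lay below both inputs on the first scale and above both on the second, and no absolute gain or loss of miRNA can be read from either.

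**Figure D1:**
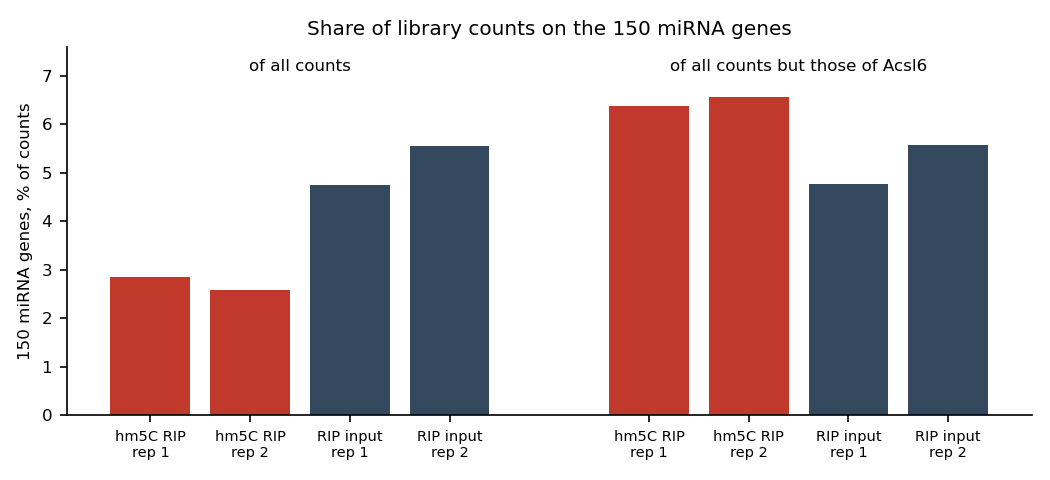
Share of library counts on the 150 miRNA genes (y axis, percent) in each hm5C RIP library (red) and each RIP input library (dark blue), of all counts (left) and of all counts but those of Acsl6 (right). Both hm5C RIP bars stand below the input bars on the left (2.86% and 2.59% against 4.76% and 5.56%) and above them on the right (6.38% and 6.57% against 4.77% and 5.57%).

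With TMM scaling, which sets most features level between libraries, the median member had a log2 hm5C RIP over RIP input of -1.20, against 0.15 over all 2081 features tested. All 150 members passed the filter on low counts. At an adjusted p under 0.05 in edgeR's quasi-likelihood test 3 members were called higher, beside 33.0% of all tested features, and 103 were called lower, beside 18.9%. In CPM, both hm5C RIP libraries lay below both inputs for 130 members (35.0% of all features) and above both for 7 (42.3% of all features), and 13 overlapped. With library size as the scale after Acsl6 was removed, the counts were 31 higher (66.8% of all features) and 4 lower (3.49%), with a median of 0.26 against 1.99 over all features. On all of these scales the median member stood 1.35 to 1.73 log2 units below the median feature. Since the input counts chose the members, these counts describe them and nothing is read from their number.

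A further scale divides each count by the library's total over the 150 members, and so shows only how miRNAs moved among themselves. It was added after the values were seen. On it 39 members had both hm5C RIP shares above both input shares (64.6% of all features), 56 had both below (13.5%) and 55 overlapped. The order of the 150 log2 values hardly depended on the scale, with a Spearman correlation of at least 0.998 between TMM and each other scaling. A scaling gives each library a single factor, so this agreement was largely set in advance. Leaving out a library moved the order more. Its Spearman correlation with the full fit was 0.86 without the second hm5C RIP library and 0.92 without the first. Share ratios from the first library of each kind and from the second correlated at 0.614 (148 genes). Without Acsl6 the values of the same genes lay 1.41 to 1.54 log2 units above those with TMM, so that 99 of the 150 stood above 0, and on the member total they lay 1.04 to 1.19 units above, with 60 above 0. The log2 values and CPM that follow are with TMM unless another scale is named, and those within these distances below 0 change sign with the scale. Levels in hm5C RIP followed those in RIP input, with a Spearman correlation of 0.908 across the 150 genes, which share libraries and depth. Between replicates, the share of a member differed by a median of 0.33 log2 units in hm5C RIP (148 genes with a count in both) and 0.18 in RIP input (150 genes). Between hm5C RIP and RIP input the share differed by a median of 0.47 log2 units.

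Mir182 was the most counted miRNA gene in each of the 4 libraries. It stood at 9962 and 7898 CPM in hm5C RIP, against 16256 and 19809 CPM in RIP input, a log2 change of -1.01 (SE 0.29) with TMM. Its share of member counts was 34.0% and 35.0% in hm5C RIP, against 30.4% and 34.2% in RIP input, so the higher input library and the lower hm5C RIP library were nearly level. Mir183, from the same cluster, stood at 1491 and 1272 CPM in hm5C RIP, against 3270 and 3209 CPM in RIP input. Mir96, the remaining gene of the cluster, stood at 28.2 and 16.6 CPM in hm5C RIP, against 83.6 and 84.7 CPM in RIP input, a log2 change of -1.93 (SE 0.32). Genes of one cluster thus spread over 0.92 log2 units, with Mir96 below the member median and Mir182 above it.

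Mir92-2, at 2207 and 1760 CPM in hm5C RIP, stood at 4428 and 4599 CPM in RIP input. Its log2 change of -1.19 (SE 0.27) was close to the member median. Its mature strand is identical to that of Mir92-1, so its reads cannot be assigned to one gene by sequence. Mir92b, with the same seed, stood at 791 and 752 CPM in hm5C RIP, against 1091 and 1152 CPM in RIP input, a log2 change of -0.54 (SE 0.25). It had the least negative change of the 12 most counted genes, and its share of member counts was higher in both hm5C RIP libraries (2.70% and 3.34%) than in both inputs (2.04% and 1.99%). The same order of libraries held for 64.6% of all features on that scale. Of the same seed, Mir363 had a log2 change of -1.60 (SE 0.26) and Mir32 one of -2.02 (SE 0.57), so 4 genes with one seed spread over 1.48 log2 units.

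The remaining 8 of the 12 most counted genes had log2 changes from -1.50 to -1.003, and every one lay below both inputs in both hm5C RIP libraries on the TMM scale (35.0% of all features). Mir541 and Mir411 lie in the imprinted Dlk1-Dio3 locus, which in the mouse expresses its miRNAs from the maternal chromosome. Mir541 stood at 1214 and 927 CPM in hm5C RIP, against 2998 and 3053 CPM in RIP input, and Mir411 at 991 and 651 CPM, against 1765 and 1867 CPM. Mir298, of the imprinted Gnas region, stood at 1231 and 1050 CPM in hm5C RIP, against 3051 and 2878 CPM in RIP input. Mir16-1, a cell cycle regulator whose mature strand is shared with Mir16-2, stood at 1368 and 854 CPM in hm5C RIP, against 2510 and 2236 CPM in RIP input.

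Mir26a-1, whose known targets include the histone methyltransferase Ezh2, stood at 1017 and 727 CPM in hm5C RIP, against 2066 and 1893 CPM in RIP input. Mir148a, known to target DNA methyltransferase messages, stood at 858 and 591 CPM in hm5C RIP, against 1630 and 1914 CPM in RIP input. Mir99b, within the span of Spaca6, stood at 711 and 556 CPM in hm5C RIP, against 1200 and 1545 CPM in RIP input. These 3 genes kept the order of libraries seen for the whole top group, with no hm5C RIP library reaching an input library (35.0% of all features). Mir151, within the span of Ptk2, stood at 418 and 351 CPM in hm5C RIP, against 724 and 817 CPM in RIP input. On the scale without Acsl6 the log2 values of 11 of these 12 genes lay above 0, from 0.10 for Mir298 to 0.94 for Mir92b, and that of Mir541 was -0.04.

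**Figure D2:**
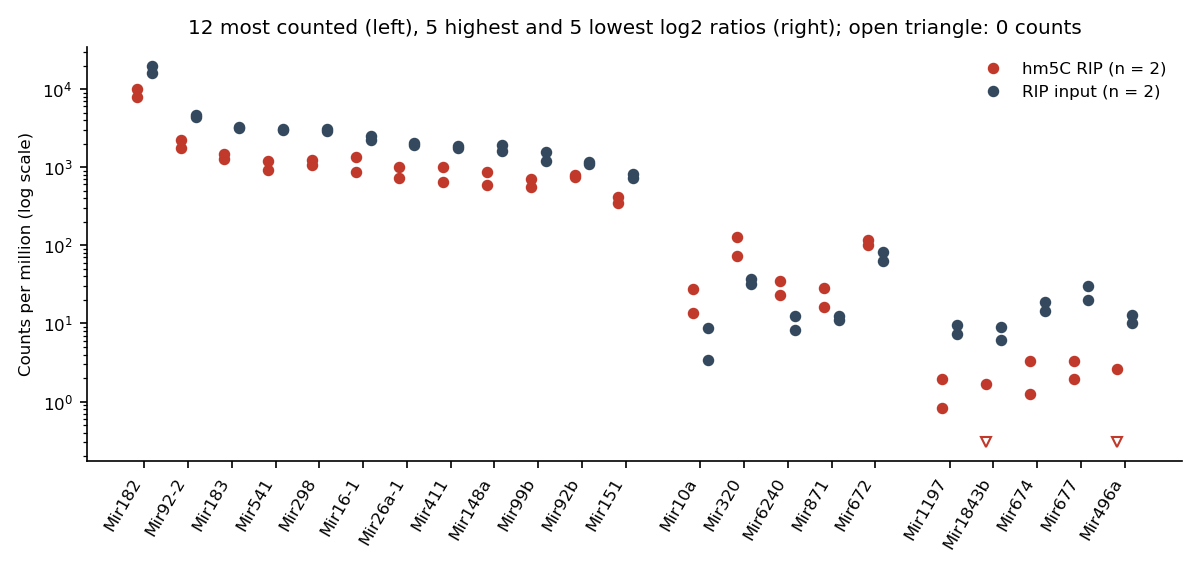
Level in CPM with TMM scaling (y axis, log scale) of the 12 most counted miRNA genes and of those with the 5 highest and 5 lowest log2 ratios, one point per library, hm5C RIP in red left of RIP input in dark blue (n = 2 each), open triangles marking 0 counts. The red points lie below the blue points in the first and last blocks and above them in the middle block, as for Mir320 at 126 and 72.6 CPM in hm5C RIP against 31.5 and 37.4 CPM in RIP input.

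Over all 150 genes the log2 change ran from -3.39 to 1.78, with quartiles of -1.63 and -0.91, and 12 genes had a value above 0. The highest were Mir10a, Mir320 and Mir6240, which were also the 3 called higher. Without the count filter no member was called higher. With a library left out the log2 values ran from 0.96 to 2.26 for Mir10a, 0.996 to 1.82 for Mir320 and 0.90 to 1.67 for Mir6240. Mir10a had 21 and 67 counts in hm5C RIP, against 14 and 41 in RIP input, which gave 13.8 and 27.8 CPM, against 3.39 and 8.72 CPM. It had a log2 change of 1.78 (SE 0.55). Its 2 hm5C RIP libraries lay above both inputs, though the lower of the 2 and the higher input lay close together.

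Mir10b, with far more counts, stood at 206 and 171 CPM in hm5C RIP, against 144 and 186 CPM in RIP input, a log2 change of 0.19 (SE 0.27), and its libraries overlapped. Relative to the member total both genes stood higher in hm5C RIP, with log2 values of 2.98 (SE 0.52) for Mir10a and 1.31 (SE 0.27) for Mir10b and no overlap of libraries. On that scale 64.6% of all features had both hm5C RIP libraries above both inputs. The median over all features was 1.28, so Mir10b stood close to the median feature. Mir320, known for a precursor that Dicer processes without Drosha, had a log2 change of 1.52 (SE 0.33) with TMM. Mir6240 stood at 22.9 and 35.2 CPM in hm5C RIP, against 8.24 and 12.5 CPM in RIP input, a log2 change of 1.49 (SE 0.38).

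Next in order came Mir871, at 16.4 and 28.2 CPM in hm5C RIP, against 10.9 and 12.3 CPM in RIP input, and Mir672, at 118 and 101 CPM, against 62.3 and 81.3 CPM. Mir672 lies on the X chromosome within the span of Nexmif. Mir871 forms a cluster with Mir470 at chrX:66810428-66814025, and the mouse miR-470 is known to target messages of pluripotency factors. Mir470 stood at 12.4 and 12.03 CPM in hm5C RIP, against 9.69 and 9.78 CPM in RIP input. Both genes of this cluster therefore had all hm5C RIP values above all input values, as did 42.3% of all features, with log2 changes of 0.96 (SE 0.38) and 0.33 (SE 0.38).

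At the other end, Mir496a had 4 and 0 counts in hm5C RIP, against 53 and 48 in RIP input, a log2 change of -3.39 (SE 0.87). Mir496a and Mir1197 both belong to the Dlk1-Dio3 locus, and Mir1197 had 3 and 2 counts in hm5C RIP, against 30 and 45 in RIP input. Mir677, within the span of Atp5b, had 3 and 8 counts in hm5C RIP, against 125 and 95 in RIP input, a log2 change of -3.18 (SE 0.48). The groups were far apart for each of these genes, yet their hm5C RIP values rest on at most 8 counts in a library. Mir674 had 5 and 3 counts in hm5C RIP, against 60 and 89 in RIP input. Mir1843b had 0 and 4 counts in hm5C RIP, against 37 and 29 in RIP input, and its site overlaps the small Cajal body RNA gene Scarna3a within the span of Cop1, so that reads of both genes cannot be told apart here.

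**Figure D3:**
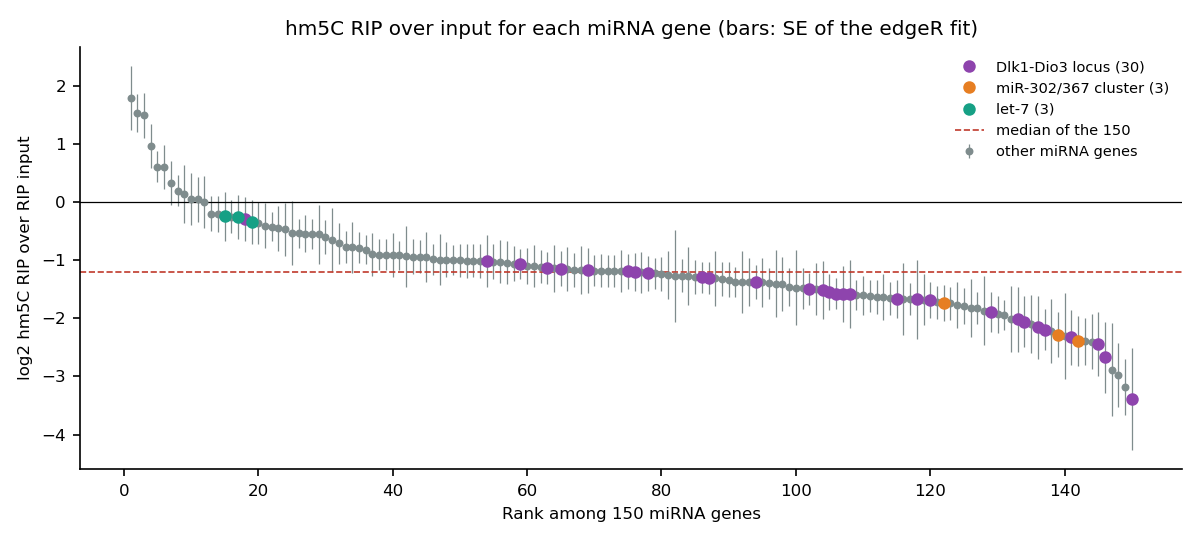
log2 hm5C RIP over RIP input with TMM (y axis) of the 150 miRNA genes in rank order (x axis), bars giving the SE of the edgeR fit, with the Dlk1-Dio3 locus, the miR-302 cluster and let-7 in colour and the median of -1.20 dashed. The 3 let-7 genes lie near 0 in the upper part of the order, while the 3 miR-302 genes lie between -2.39 and -1.73 and Dlk1-Dio3 genes fill much of the lower part.

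The stem cell clusters lay in the lower part of this order. All 3 counted genes of the miR-302 cluster had both hm5C RIP libraries below both inputs, in CPM (35.0% of all features) and as a share of the member total (13.5%). Mir302d stood at 39.3 and 23.2 CPM in hm5C RIP, against 103 and 102 CPM in RIP input, a log2 change of -1.73 (SE 0.31). Mir302a stood at 22.3 and 10.4 CPM in hm5C RIP, against 88.4 and 65.9 CPM in RIP input, and Mir302b at 12.4 and 4.98 CPM, against 45.1 and 42.1 CPM. Their log2 values were -2.28 (SE 0.39) and -2.39 (SE 0.43). Mir290a, the one member from the miR-290 cluster, stood at 11.1 and 6.22 CPM in hm5C RIP, against 32.0 and 26.2 CPM in RIP input, a log2 change of -1.78 (SE 0.40). Its site at chr7:3218626-3218708 overlaps Mir290b.

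The miR-106a-363 cluster had 5 members, all below both inputs in hm5C RIP by CPM (35.0% of all features) and by share of the member total (13.5%). Its log2 values ran from -2.40 to -1.19. Mir20b was lowest, at 14.4 and 6.22 CPM in hm5C RIP, against 54.0 and 50.6 CPM in RIP input. Mir106a and Mir20b differ by the substitutions A10C and C12U, counted from the 5′ end of miR-106a-5p, and had log2 values of -1.63 and -2.40. Mir106b, of the related miR-106b-25 cluster on chromosome 5, shares their seed and stood at 56.3 and 43.1 CPM in hm5C RIP, against 99.6 and 97.0 CPM in RIP input, a log2 change of -0.99 (SE 0.26). One seed thus again covered a spread of 1.41 log2 units between loci. These are among the wider spreads, as the median over all 31 shared seeds was 0.46 log2 units. Most of those seeds are held by only 2 genes, however, while these spreads come from 3 and 4, and a range widens with the number of genes.

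The 3 let-7 members, whose miRNAs mark differentiation, had low counts in RIP. Their summed level was 48.5 and 30.7 CPM in hm5C RIP, against 49.4 and 45.3 CPM in RIP input. This sum does not give the level of let-7 in the cells, since the handling of reads shared by copies such as Mirlet7c-1 and Mirlet7c-2 is not known. The log2 values of the 3 genes with TMM were -0.35 for Mirlet7a-2, -0.26 for Mirlet7g and -0.25 for Mirlet7c-1. They turn positive without Acsl6 on library size and on the member total. Mirlet7g stood at 24.2 and 13.3 CPM in hm5C RIP, against 23.0 and 21.1 CPM in RIP input, so its libraries overlapped. Relative to the member total all 3 lay above both inputs in hm5C RIP, as did 64.6% of all features, with log2 values of 0.77 to 0.85 beside a median of 1.28 over all features.

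The Dlk1-Dio3 locus gave 30 members, at chr12:109571990-109743496, and was the largest group from one locus. Together they stood at 3287 and 2343 CPM in hm5C RIP, against 7073 and 7451 CPM in RIP input. Their log2 values ran from -3.39 to -0.30 with a median of -1.56. As a share of the member total, 17 of the 30 lay below both inputs in hm5C RIP (13.5% of all features), 1 lay above (64.6%) and 12 overlapped. The one above was Mir668, at 9.17 and 12.9 CPM in hm5C RIP, against 14.1 and 13.4 CPM in RIP input. The locus's 2 most counted genes, Mir541 and Mir411, had log2 values of -1.50 and -1.15, and the others ran on both sides of these.

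**Figure D4:**
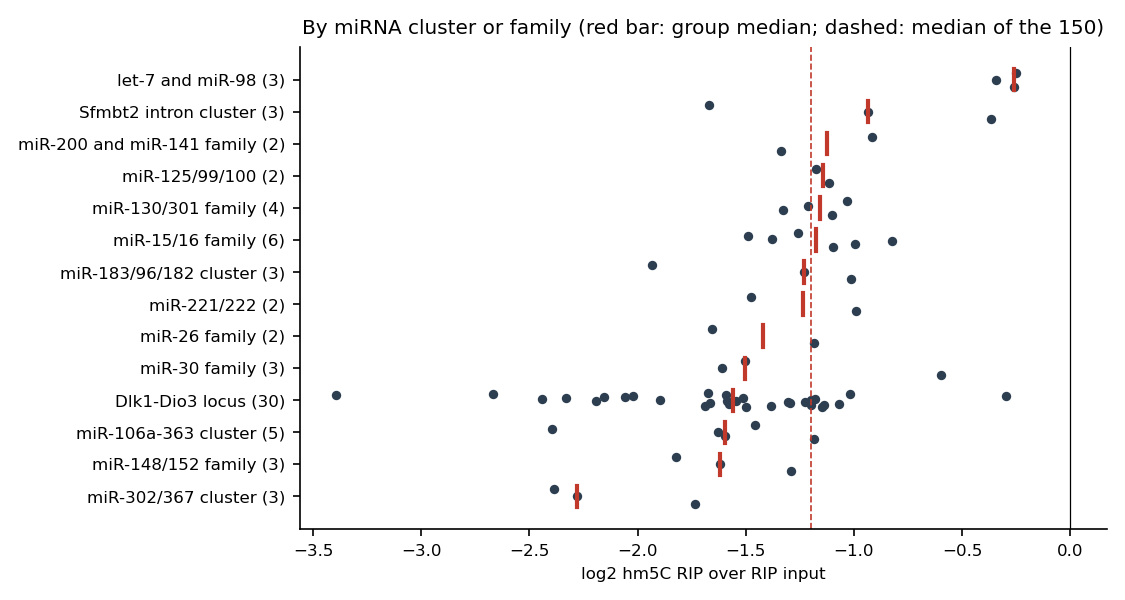
log2 hm5C RIP over RIP input with TMM (x axis) of single miRNA genes (points) by cluster or family (rows, gene number in brackets), with each group's median as a red bar and the median of all 150 genes dashed. let-7 stands highest with a median of -0.26, the miR-302 cluster lowest with -2.28, and the Dlk1-Dio3 locus covers the widest range, -3.39 to -0.30.

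The miR-15/16 family, which restrains the cell cycle, had 6 members with one seed, AGCAGCA, and log2 values from -1.49 to -0.82. The 4 miR-130 and miR-301 genes ran from -1.33 to -1.03, with Mir301 at 288 and 143 CPM in hm5C RIP, against 436 and 485 CPM in RIP input. The 3 miR-148 and miR-152 genes ran from -1.82 to -1.29 and all lay below both inputs as a share of the member total (13.5% of all features). Mir200b, of the family that maintains epithelial identity, stood at 65.5 and 39.4 CPM in hm5C RIP, against 131 and 132 CPM in RIP input, and its cluster mate Mir200a had a log2 value of -0.92, against -1.34 for Mir200b.

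In the miR-30 family the 3 genes split, with Mir30a at -0.60 (SE 0.29) and 324 and 223 CPM in hm5C RIP, against 369 and 457 CPM in RIP input. Mir30b and Mir30c-1 lay at -1.61 and -1.51. Mir222 stood at 15.7 and 7.05 CPM in hm5C RIP, against 23.0 and 20.8 CPM in RIP input. Of the Sfmbt2 intron cluster Mir467c stood at 17.7 and 11.6 CPM in hm5C RIP, against 18.9 and 18.3 CPM in RIP input. Mir877, a mirtron spliced out of Abcf1 without Drosha, stood at 21.6 and 8.71 CPM in hm5C RIP, against 23.0 and 17.9 CPM in RIP input. For Mir467c and Mir877 the difference was no larger than the gap between the hm5C RIP libraries. Several of these changes, all negative with TMM, turn sign with the scale. Without Acsl6 on library size the log2 values were 0.32 for Mir301, 0.11 for Mir200b, 0.55 for Mir200a, 0.85 for Mir30a, 0.45 for Mir222, 1.10 for Mir467c and 0.96 for Mir877. On the member total they were -0.04 for Mir301, -0.25 for Mir200b, 0.19 for Mir200a, 0.50 for Mir30a, 0.09 for Mir222, 0.74 for Mir467c and 0.59 for Mir877.

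On the scale of the member total the highest values after Mir10a were those of Mir6240 (log2 2.66), Mir320 (2.60), Mir871 (2.13), Mir672 (1.73), Mir6239 (1.72) and Mir470 (1.45), and the lowest those of Mir496a (-2.32), Mir677 (-2.05) and Mir674 (-1.87). All of these rest on fewer than 1000 input counts. Among the 43 better counted genes Mir10b, Mir423 and Mir92b stood highest, with values of 1.31, 0.71 and 0.58, and Mir186 lowest, with -0.82. The median over all features on this scale was 1.28, close to Mir10b and above Mir423 and Mir92b. Mir423 stood at 366.8 and 405 CPM in hm5C RIP, against 554 and 481 CPM in RIP input, and Mir186 at 111 and 110 CPM, against 455 and 395 CPM. For Mir186 the 2 hm5C RIP libraries were nearly level and far below both inputs, and for Mir423 the groups were also apart, by less than the gap seen for most members.

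Base composition of the mature arms showed little relation to these values. Over the 137 genes with a sequence, arms averaged per gene, the Spearman correlation of the log2 change was 0.05 with the percent of C, which was at least 9.52% with a median of 22.7%. It was 0.21 with G, -0.22 with U, 0.01 with A and 0.10 with the number of CG dinucleotides. Over 128 hairpins the values were -0.02 for C, 0.16 for G, -0.25 for U and 0.15 for A. These correlations are across genes of one set of libraries and are given as a description.

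CLIP, which the choice of members did not use, held few reads of these genes. Of the 150, 97 had at least 1 count over the 8 CLIP libraries, 53 had none, and 27 had 10 or more. Summed over the members there were 529 counts in TET2 CLIP and 2442 in CLIP input, or 546 ± 277 CPM in TET2 CLIP and 218 ± 20.6 CPM in CLIP input (SD, n = 4 libraries each). The share of library counts was 0.057% and 0.074% in TET2 CLIP, against 0.021% and 0.024% in CLIP input, for clone 65. For clone 75 it was 0.039% and 0.024% in TET2 CLIP, against 0.019% and 0.022% in CLIP input. One gene, Mir6240, held 39.9% to 52.4% of the member counts in each CLIP input library.

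The most counted miRNA genes of the RIP part were almost absent from CLIP. Mir182 had 160233 counts in the RIP inputs and 2 counts in TET2 CLIP and 1 in CLIP input. The 12 most counted genes together had 40 counts in TET2 CLIP and 17 in CLIP input, of which Mir16-1 held 17 and 2 and Mir298 held 11 and 6. In CPM these 12 summed to 77.4 and 36.0 (clone 65) and 33.8 and 15.9 (clone 75) in TET2 CLIP, against 0.93 and 2.01 (clone 65) and 0 and 1.43 (clone 75) in CLIP input. The 4 TET2 CLIP values thus lay above all 4 input values, although 3 counts, the limit that a count of 0 allows, already amount to 6.75 to 16.6 CPM in TET2 CLIP and 0.55 to 3.96 CPM in CLIP input.

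The filter on low counts left 9 members for the test, 6 of them called higher in TET2 CLIP (8.99% of all 10334 features were called higher) and 3 lower (5.83%). The higher ones were Mirlet7g, Mir16-1, Mir301b, Mir290a, Mir1983 and Mir34a, and the lower ones Mir6240, Mir378c and Mir5099. Of the 6 higher ones, 5 (Mirlet7g, Mir16-1, Mir301b, Mir290a and Mir1983) passed the filter only through TET2 CLIP, and of the 3 lower ones Mir378c and Mir5099 only through CLIP input. Genes that pass in this way had to differ, so their number is no support for a direction, and they are given below with values and no p. Mir34a and Mir6240 passed through either kind of library. In the fit without the filter, which takes in every feature with a count, 17 of 97 members were called higher (2.12% of all features) and 3 lower (4.92%), with a median feature at -0.66, and the 9 genes were called in the same directions. All TET2 CLIP libraries lay above all inputs for 4 of the 9 (8.58% of all features) and below for 3 (7.56%), and 2 overlapped. In clone 65 alone 6 were called higher (8.21% of all features) and 1 lower (2.87%), and in clone 75 alone 4 higher (6.22%) and 2 lower (3.93%).

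Mir1983 had the most counts of any member in TET2 CLIP, 84, and 41 in CLIP input. Its TET2 CLIP levels were 55.3 and 108 CPM in clone 65 and 92.3 and 47.8 CPM in clone 75, against 3.11 and 2.56 CPM and 5.27 and 6.22 CPM in the inputs of those clones. The log2 change over both clones was 4.25 (SE 0.35), and all 4 TET2 CLIP libraries lay above all 4 inputs. Its annotated hairpin at chr13:21896918-21897049 contains n-TItat14, a tRNA gene for isoleucine with the anticodon TAT. Its reads therefore cannot be told apart from those of that tRNA, and its hm5C RIP over RIP input was -1.40 (SE 0.26).

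Mirlet7g had 3 and 6 counts (clone 65) and 5 and 5 (clone 75) in TET2 CLIP, against 1 and 0 and then 0 and 0 in CLIP input. The ratio of its totals, scaled by library, was 205 with a 95% counting interval of 32.5 to 8501. Mir16-1 had 2 and 5 counts (clone 65) and 9 and 1 (clone 75) in TET2 CLIP, against 0 and 2 and then 0 and 0 in CLIP input. The scaled ratio was 91.5, with an interval of 21.7 to 817. All TET2 CLIP libraries had counts of both genes and lay above all inputs. Mir16-2, with the same mature strand as Mir16-1, had no count in any CLIP library. Gene counts do not show whether the reads of Mirlet7g and Mir16-1 come from the mature miRNAs.

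Mir301b had 5 and 11 counts (clone 65) and 5 and 1 (clone 75) in TET2 CLIP, against 2 and 1 and then 0 and 0 in CLIP input. The scaled ratio was 79.0, with an interval of 23.7 to 412, and its call was lost without the first TET2 CLIP library of clone 75. The gene lies beside Mir130b at chr16:17124400-17124496, within the span of a protein-coding gene. Mir290a had 15 and 9 counts (clone 65) and 5 and 0 (clone 75) in TET2 CLIP, against 3 and 2 and then 0 and 3 in CLIP input. Its log2 change was 4.64 (SE 0.86), against 1.27 without the first TET2 CLIP library of clone 75, where its call was lost. By clone the log2 change of Mir290a was 6.61 in clone 65 and 2.68 in clone 75, a difference that did not pass edgeR's test.

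Mir34a, whose miRNA is induced by p53 and restrains proliferation, was the one member whose change differed between the clones. In clone 65 it stood at 71.9 and 159 CPM in TET2 CLIP, against 16.8 and 21.2 CPM in CLIP input. In clone 75 it stood at 58.5 and 23.9 CPM in TET2 CLIP, against 35.6 and 40.2 CPM in CLIP input. The log2 change was 2.59 (SE 0.38) in clone 65, where the libraries did not overlap, and 0.24 (SE 0.39) in clone 75, where they did. The difference of 2.35 (SE 0.50) had an adjusted p of 0.00656 in edgeR's test of the difference of clones, which called 2.54% of all features. Over both clones the log2 change was 1.41 (SE 0.27, adjusted p 2.44e-04), and it lost its call without the second TET2 CLIP library of clone 65 (0.88, adjusted p 0.0525) or the first of clone 75 (0.83, adjusted p 0.239).

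Mir6240 stood at 83.0 and 30.8 CPM (clone 65) and 22.5 and 43.8 CPM (clone 75) in TET2 CLIP, against 101 and 107 CPM and 92.3 and 95.2 CPM in CLIP input. Every TET2 CLIP library lay below every input, with a log2 change of -1.27 (SE 0.24) and an adjusted p of 1.91e-04 in edgeR's test. It thus stood lower in TET2 CLIP and, as described above, higher in hm5C RIP than in the input of each assay. Gene counts do not show whether its reads, or those of Mir5099 and Mir6239, come from a mature miRNA. Mir378c had 1 and 0 counts (clone 65) and 2 and 0 (clone 75) in TET2 CLIP, against 93 and 151 and then 52 and 112 in CLIP input. The scaled ratio of totals was 0.0792, with a counting interval of 0.0163 to 0.233. Mir5099 had a single count in TET2 CLIP and 197 in CLIP input, for a scaled ratio of 0.0547 and an interval of 0.00138 to 0.308.

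**Figure D5:**
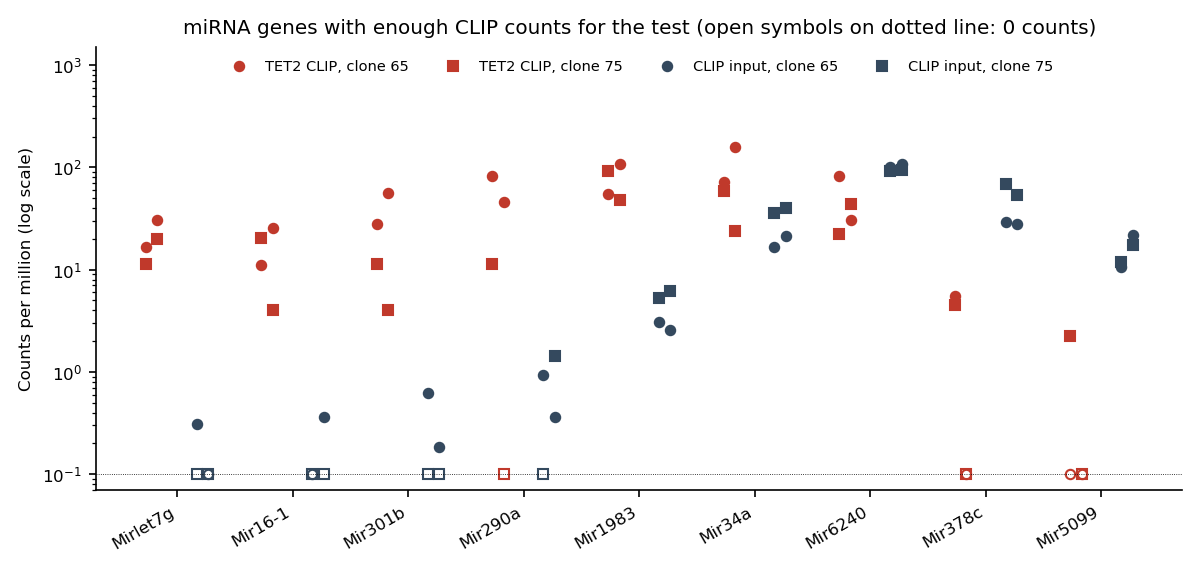
Level in CPM with TMM scaling (y axis, log scale) of the 9 miRNA genes tested in CLIP, one point per library, TET2 CLIP in red left of CLIP input in dark blue, clone 65 as circles and clone 75 as squares, open symbols on the dotted line marking 0 counts. TET2 CLIP points lie above all inputs for Mirlet7g, Mir16-1, Mir301b and Mir1983, overlap for Mir290a and Mir34a, and lie below all inputs for Mir6240, Mir378c and Mir5099.

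The other 141 members had too few CLIP counts for a test, with at most 37 each over the 8 libraries. Of the 88 with any count, 57 had a higher mean CPM in TET2 CLIP and 31 a higher one in CLIP input. A single count weighs more CPM in the shallower TET2 CLIP libraries, and the same split over all features was not made. Mir708, for example, had 2 counts in TET2 CLIP and 7 in CLIP input, yet means of 1.85 and 0.49 CPM. Nothing is therefore read from the split. The sum over these 141 members was 343 and 391 CPM (clone 65) and 167 and 95.6 CPM (clone 75) in TET2 CLIP, against 30.7 and 28.4 CPM and 17.1 and 24.9 CPM in CLIP input. All 4 TET2 CLIP sums lay above all 4 inputs, and clone 65 had the higher sums in TET2 CLIP. These sums leave out the 9 tested genes, which held 2123 of the 2442 CLIP input counts. Over all 150 members the second libraries of clone 75 were level, at 238.9 CPM in TET2 CLIP and 238.6 CPM in CLIP input. Among the 141 members Mir296, cluster mate of Mir298, had 20 counts in TET2 CLIP and 13 in CLIP input, while Mir10a and Mir320, highest in hm5C RIP, had none in TET2 CLIP and 1 and 3 in CLIP input. At this depth a binding of single miRNAs below the limit of 3 counts was not detectable.

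The messages of the miRNA pathway were measured in the same libraries. Of a list of 44 genes for miRNA processing, Argonaute complexes and decay, 42 were tested in CLIP, where 5 were higher in TET2 CLIP (8.99% of all features) and 3 lower (5.83%), and the list's median was -0.10 against -0.03 over all features. The message of Cnot7, a deadenylase of the CCR4-NOT complex, stood at 167 ± 79.2 CPM in TET2 CLIP and 41.0 ± 4.65 CPM in CLIP input (SD, n = 4 each), a log2 change of 1.87 (SE 0.21, adjusted p 3.65e-08, edgeR). That of the Argonaute gene Ago1 stood at 332 ± 148 CPM in TET2 CLIP and 137 ± 6.31 CPM in CLIP input, a log2 change of 1.18 (SE 0.13, adjusted p 1.53e-08, edgeR).

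Dicer1 (log2 change 0.66), Ago3 (0.64) and the RNA editing enzyme Adar (0.58) were the other higher ones, and the KH domain protein gene Khsrp (-0.66), the helicase gene Ddx17 (-0.49) and the poly(A) binding protein gene Pabpc1 (-0.41) the lower ones. The log2 values by clone were 1.12 in clone 65 and 0.03 in clone 75 for Adar, 0.92 and 0.39 for Dicer1, -0.99 and -0.32 for Khsrp and -0.13 and -0.69 for Pabpc1, and these differences did not pass edgeR's test (adjusted p 0.0797 for Adar, 0.382 for Dicer1, 0.318 for Khsrp and 0.256 for Pabpc1). With the replicate block or with library size alone 3 genes of the list were higher in place of 5, and without the count filter 2 were higher and 12 lower. The increase of Ago1 was larger in clone 65 (log2 change 1.72) than in clone 75 (0.64), with an adjusted p of 0.0137 in edgeR's test of the difference. In RIP, 15 genes of the list had enough counts, of which 1 was higher, Srrt (2.33), beside 33.0% of all features, and 1 lower, Drosha (-2.30), beside 18.9%. The call of Srrt was lost without the count filter and in DESeq2's Wald test, and that of Drosha with DESeq2 size factors among other settings.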

How the data were processed

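The deposited tables hold the authors' raw read counts per gene, whole numbers whose sums differ between libraries, for hm5C RIP, RIP input, TET2 CLIP and CLIP input. Per the submitters' processing notes the genome build was mm10 and the tools included STAR 2.5.3a, Bowtie2 2.2.6, cutadapt and UMI-tools. The role of each tool, how reads were counted, how reads that map to several copies were handled and whether strand was used are not given in the sources used here. Such handling can move counts between a member and its copy for the 17 members with a mature sequence shared by another gene. The deposited table of tRNA fragments holds no miRNA and was not used. Groups follow the sample labels.

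Counts of all features were fitted with edgeR 4.0.16 in R 4.3.3 (TMM, filterByExpr, robust quasi-likelihood F test, Benjamini-Hochberg adjustment at 0.05), over 4 RIP libraries and over 8 CLIP libraries, where contrasts covered the mean of the clones, either clone and the difference between them. CPM is the count scaled to a common library total with TMM. The marker lists are the exception, as their CPM use the library total without TMM and with Acsl6 included. Means and SD are over libraries, and the fit supplies log2 changes with their SE. Alternatives were other scalings (DESeq2 size factors, plain library size, Acsl6 removed), no filter, the Wald test of DESeq2 1.42.0, a block for the replicate number, other count thresholds for members and leaving out each library. The member total as library size was added after seeing the data. Counting intervals are exact at 95%, conditional on the totals, and cover counting error only.

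In simulated RIP data over 1782 features 16.5% of 2-fold and 81.7% of 4-fold changes were recovered. In simulated CLIP data over 9206 features the shares were 65.9% and 95.6%. False calls made up 11.0% of the calls in simulated RIP data and 8.86% in simulated CLIP data. Both lay above the share that the limit on the adjusted p was set to allow. Libraries of one group differed beyond counting noise (ratio of chi-square to its degrees of freedom 1.66 to 14.2), so none was treated as a repeat.

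Named with values are the 12 members highest in RIP input, the 5 highest and 5 lowest log2 changes, every member tested in CLIP, those next to the threshold, the most counted member of each cluster or family and called genes of the miRNA pathway list (2 of its 46 symbols were not found). Others named were chosen after their values were seen. The members and lists were chosen with earlier results of these data known. Coordinates and sequences are from RefSeq (GRCm38.p6, the assembly of mm10), which gave coordinates for 149 members.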

Additional observations from a re-analysis of the deposited data

Results flagged for a closer look

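Mir34a was singled out because its TET2 CLIP over input differed between the clones in edgeR's test of that difference. The log2 change of clone 65 minus that of clone 75 was 2.35 (SE 0.50, adjusted p 0.00656), with both clone 65 TET2 CLIP libraries above both of their inputs and overlapping libraries in clone 75. For Ago1 the same difference was 1.08 (SE 0.25, adjusted p 0.0137, edgeR). That test called 2.54% of all 10334 features.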

How the results depend on the processing

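In CLIP the 9 tested genes kept their direction in every alternative that tested them. They kept their call in 108 of 112 such fits, the 4 losses being those given for Mir290a, Mir301b and Mir34a. Some alternatives did not test all 9, because a gene missed the filter there. Of the 9, 5 passed the filter only through TET2 CLIP and 2 only through CLIP input, so their kept direction is no support. Mir34a and Mir6240 alone passed through either kind of library. In RIP the order of the members was nearly the same on every scaling run, as a single factor per library largely sets in advance, but their sign was not. On library size after Acsl6 was removed the median member had a log2 value of 0.26, with 31 higher and 4 lower (1686 and 88 features, 66.83% and 3.488% of those tested, in place of 686 and 394). The sign of 87 members turned against TMM, and among those the rule names for RIP the ones called on either scale were Mir182 0.45, Mir92-2 0.28, Mir183 0.25, Mir298 0.10, Mir16-1 0.35, Mir26a-1 0.27, Mir411 0.30, Mir148a 0.16, Mir99b 0.34, Mir92b 0.94, Mir151 0.47, Mir106b 0.48, Mirlet7g 1.19, Mir467c 1.10, Mir200b 0.11, Mir30a 0.85 and Mir301 0.32. On the member total, chosen after seeing the data, the median was -0.10, with 15 higher and 11 lower (1041 and 129 features, 50.02% and 6.199%), and the sign of 48 members turned, among them, by the same criterion, Mir182 (0.10), Mir92b (0.58), Mir151 (0.11) and Mir106b (0.12). Without the count filter the RIP median was -1.85, 2.757% of features were called higher and 2.51% lower, and no member was called higher by edgeR (3 at an unadjusted p under 0.05). Library size alone gave 5 members higher, and a threshold of 200 input counts left 1 higher.

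Leaving out one library moved the RIP median between -1.59 and -1.002, members called higher between 0 (without the first RIP input library, 1 at an unadjusted p under 0.05, edgeR) and 4 and lower between 88 and 124, and all features between 336 and 745 higher (14.67% to 25.35% of those tested; 356 and 336 without the first and the second RIP input library) and up to 640 lower (without the first hm5C RIP library). In CLIP it moved members called higher between 3 (without the first TET2 CLIP library of clone 75) and 8, members lower between 2 and 3, and all features between 680 and 907 higher (4.912% to 7.088% of those tested) and 453 and 1081 lower, in place of 929 and 602. The lower calls passed 1.5 times the 602 without any 1 of the TET2 CLIP libraries but the first of clone 75. CLIP features called lower were 922 (8.922%) with library size alone and 1871 without the count filter, where 2.121% of features were called higher and 17 members were called higher among 97 tested.

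The miRNA pathway list depended on the setting. In RIP its higher calls were 2 with library size alone, 2 without Acsl6 with TMM, 12 without Acsl6 on library size (where 66.83% of all features were higher), 9 on the member total (50.02%), and 0 without the filter or in DESeq2's Wald test (1 each at an unadjusted p under 0.05). Its lower calls were 0 with DESeq2 size factors, with library size alone (1 each at an unadjusted p under 0.05), in the Wald test, on the member total and on both scales without Acsl6 (0 each at an unadjusted p under 0.05). Leaving out a library gave 0 to 5 higher and 0 to 1 lower. In CLIP it had 3 higher with library size alone, 2 higher and 12 lower without the filter, and 3 to 4 higher and 2 to 8 lower with a library left out.

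Deviations from the group means of replicates with one number correlated at 0.03 in RIP and at -0.01 and 0.02 in the clones. With 2 libraries per group, these values cannot tell whether a library and its input came from one preparation. With the replicate block RIP members stood at 3 higher and 103 lower with a median of -1.21, CLIP members at 6 higher and 3 lower, and the pathway list in CLIP at 3 higher in place of 5. The cause of these changes was not tested. Depth limits CLIP, where TET2 CLIP libraries had 221060 to 453944 counts and 3 counts amount to at least 6.75 CPM.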
